A study of Homo sapiens with 14 samples.

Results

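In MDA-MB-231 cells, a triple-negative breast cancer line, 115 genes were strongly lower in every edited line than in the unedited parental cells. They were taken by level alone, as the genes with a parental mean of at least 2 TPM whose value in each of the 12 libraries of edited cells was at most 0.4 times that mean. Of the 19410 genes in the table, 11985 reached the parental minimum, and the 115 genes are 0.960% of these. Most were low to begin with. Their parental mean ranged from 2.07 to 217 TPM with a median of 5.65, against a median of 31.8 TPM over all genes at the minimum, and 52 of the 115 lay between 2 and 5 TPM.

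RNA was sequenced from parental cells and from 6 lines made from them with CRISPR/Cas9: SAP30-KO1 and SAP30-KO2, SIN3A+SIN3B-DKO1 and SIN3A+SIN3B-DKO2, and, for the methyltransferase, MLL1-KO1 and MLL1-KO2. Each of the 7 conditions has 2 libraries. The KO lines lack 1 targeted gene and the DKO lines were made by targeting both SIN3A and SIN3B. According to the study's methods the edited cells received a guide RNA vector, were selected with puromycin, were picked as single knockout cells, and were then expanded and mixed. Parental cells went through none of these steps and no line with a control guide was sequenced, so that loss of the targeted genes and the handling shared by all edited lines cannot be told apart for genes lower in all of them.

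SIN3A and SIN3B are scaffold proteins that bring histone deacetylases to chromatin, and SAP30 is a subunit of the same complex. The complex is best known for repressing genes, although it has also been linked to active ones. MLL1, also called KMT2A and listed in the table as MLL, is a histone methyltransferase that marks active promoters.

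The targeted genes were checked first. SAP30 RNA was 78.9 and 82.8 TPM in parental libraries and 2.75 to 4.96 TPM in the 4 SAP30-KO libraries. SIN3B was 75.1 and 77.4 TPM in parental libraries and 43.5 to 50.2 TPM in the 4 libraries labelled SIN3A+SIN3B-DKO, but SIN3A was higher there, at 55.1 to 62.5 against 43.1 and 45.4 TPM, so that its RNA does not check that label. MLL was 49.0 and 56.7 TPM in parental and 15.8 to 27.7 TPM in MLL1-KO libraries, and it was also low in SAP30-KO libraries, at 23 to 35.4 TPM. The line's mesenchymal markers VIM, CD44, MSN, CAV1 and AXL were high in all 14 libraries, from 267 TPM for the lowest value of CD44 to 8805 TPM for the highest of VIM. Marker lists of other cell types were low in sum but not at 0. The 3 leukocyte markers added up to 1.68 to 1.97 TPM in parental and 1.75 to 6.36 TPM in edited libraries, mostly LYZ, the 3 endothelial markers to 1.64 to 1.89 and 1.67 to 4.03 TPM, mostly PECAM1, and the 4 fibroblast markers to 5.03 to 5.05 and 5.51 to 13.5 TPM, mostly COL1A1. CD3E, CDH5 and DCN, from each of these lists in turn, had at most 1 read in any library. The part of such cells in the results was not tested. Depth ranged from 18415039 to 23162686 recovered reads.

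The genes split into those that kept a low level and those that were near the limit of detection in edited cells. The highest edited library stood at a median of 0.190 of the parental mean, and it was at or under 0.05 of it for 20 genes, at or under 0.1 for 34 and at or under 0.2 for 60. In 22 genes no edited library held more than 3 reads, and 3 of these, COCH, TFF3 and RARRES2, had 0 reads in all 12 edited libraries. At the other end, 57 genes had reads in all 12. In cultured cells measured in bulk, fewer cells expressing a gene and less RNA per cell cannot be told apart.

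**Figure D1:**
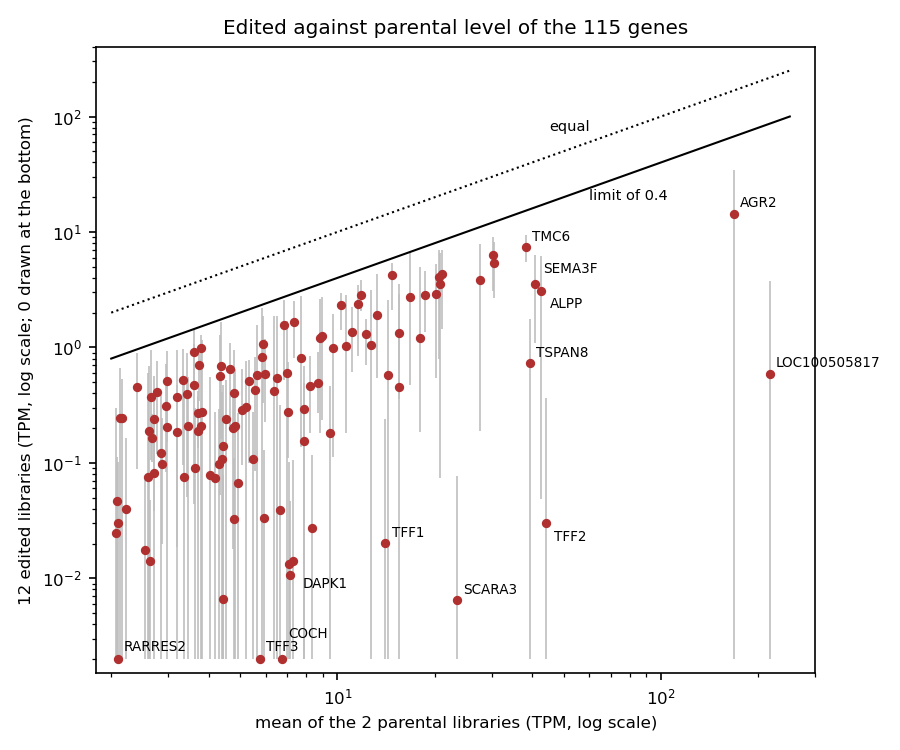
Each point is one of the 115 genes, with its mean over the 2 parental libraries on the x axis and its mean over the 12 edited libraries on the y axis, both in TPM on log scales, and grey lines span the lowest to the highest edited library. All lines end below the solid limit of 0.4, and COCH, TFF3 and RARRES2 sit at 0, which is drawn at the bottom.

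By line, the median over the 115 genes was 9.37% of the parental mean in SAP30-KO1, 6.36% in SAP30-KO2, 5.88% in SIN3A+SIN3B-DKO1, 6.93% in SIN3A+SIN3B-DKO2, 2.66% in MLL1-KO1 and 3.16% in MLL1-KO2. These values describe how the genes were chosen and were not tested against parental cells, and all 6 lines share the same 2 parental libraries. The rule was also taken in some of the libraries and then read in the others. Of the 131 genes that met it in the replicate 1 libraries of all conditions, 111 (84.7%) also met it in the replicate 2 libraries, where 1.11% of all genes at the parental minimum did. In the other direction 111 of 133 (83.5%) did so, against 1.09% of all genes. Between lines, 1 parental library was on each side. Of the 140 genes that met the rule in lines numbered 1, 109 (77.9%) also met it in lines numbered 2, against 1.23% of all genes. The reverse gave 109 of 147 (74.1%), against 1.17%. All of these libraries also chose the 115 genes, and the 2 libraries of a condition may be technical replicates. These shares are therefore a description and not independent support.

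The limit of 0.4 has no gap around it. The genes just inside were FOXF2, with 6.70 TPM in its highest edited library against a parental mean of 16.8 TPM (a ratio of 0.399), BMPR1B with 1.41 against 3.59 TPM (0.392), and ZNF415 with 1.67 against 4.36 TPM (0.384). The genes just outside were LINC00842 with 1.15 against 2.79 TPM (0.410), S1PR5 with 1.8 against 4.35 TPM (0.413), and CD96 with 13.7 against 32.5 TPM (0.421).

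The highest-expressed member was a long noncoding RNA of chromosome 18, LOC100505817 (LINC02582, chr18:70992176-71017114, GRCh37, plus strand). It was 223 and 211 TPM in the parental libraries, or 1886 and 1734 reads, and at most 4 reads in each of the 10 edited libraries outside MLL1-KO2. In MLL1-KO2 it held 13 and 32 reads, 1.63 and 3.79 TPM. A second noncoding RNA beside it, LOC400655 (LINC02864), was 7.02 and 6.29 TPM in parental libraries and 0 to 0.315 TPM in edited ones, and its highest edited libraries were likewise those of MLL1-KO2.

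Secreted proteins of epithelia, mostly mucous ones, made up 6 of the 115 genes and included several of the largest differences. AGR2 (chr7:16831435-16873057, GRCh37, minus strand), a disulfide isomerase of the endoplasmic reticulum that mucin-producing cells need, was 161 and 175 TPM in parental libraries. It was 17.5, 19.8, 17.5 and 14.7 TPM in the SAP30-KO libraries, 27.5, 34.2, 28.8 and 13.3 TPM in the libraries labelled SIN3A+SIN3B-DKO, and 0 reads in all 4 MLL1-KO libraries. Against 3 reads in the library where they are worth most, AGR2 was at least 372-fold lower in MLL1-KO than in parental cells.

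The trefoil factors are small secreted peptides that protect mucosal surfaces. TFF2 was 43.1 and 45 TPM in parental libraries, or 219 and 223 reads, and the edited libraries held 2 reads in all, both in SAP30-KO1 replicate 2. TFF1 was 11.6 and 16.5 TPM in parental libraries, or 41 and 57 reads, with 1 read in SIN3A+SIN3B-DKO2 replicate 1 and 0 in the other 11 edited libraries. TFF3 was 5.67 and 5.82 TPM, 43 reads in each parental library, and 0 reads in all 12 edited libraries, at least 13.7-fold lower. SPINK4, a peptidase inhibitor found in goblet cells, was 16.3 and 12.4 TPM in parental libraries, 0 to 0.378 TPM in SAP30-KO, 0.960 to 2.58 TPM in SIN3A+SIN3B-DKO and 0 in MLL1-KO. Of the list of trefoil factors with AGR2 and AGR3, all 4 genes in the table reached the parental minimum and all 4 were members. Over all genes at the minimum, 0.960% were members. The list was chosen with earlier results of these data known, so this count is a description and not support. DMKN, a secreted protein of the epidermis, was the remaining gene of this group, with a parental mean of 2.61 TPM and at most 0.696 TPM in edited libraries.

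Several markers of breast epithelium that were not members were also lower in edited libraries, and their part in these values was not tested. KRT8 was 412 and 419 TPM in parental libraries and 105 to 305 TPM in edited ones, KRT18 was 746 and 777 against 363 to 551, and EPCAM was 19.1 and 19.2 against 5.33 to 12.6. CDH1 was at 1.07 and 1.25 TPM in parental libraries, below the minimum, and at 0 to 0.282 TPM in edited ones. GATA3 overlapped, with 11 and 12.8 TPM in parental and 8.16 to 17.3 TPM in edited libraries. The other markers of the list were near 0. ESR1 and FOXA1 also overlapped, at most 0.041 and 0.123 TPM in parental libraries and 0.191 and 0.144 TPM in edited ones. PGR was 0.0657 and 0.139 TPM in parental libraries and 0 in edited ones.

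**Figure D2:**
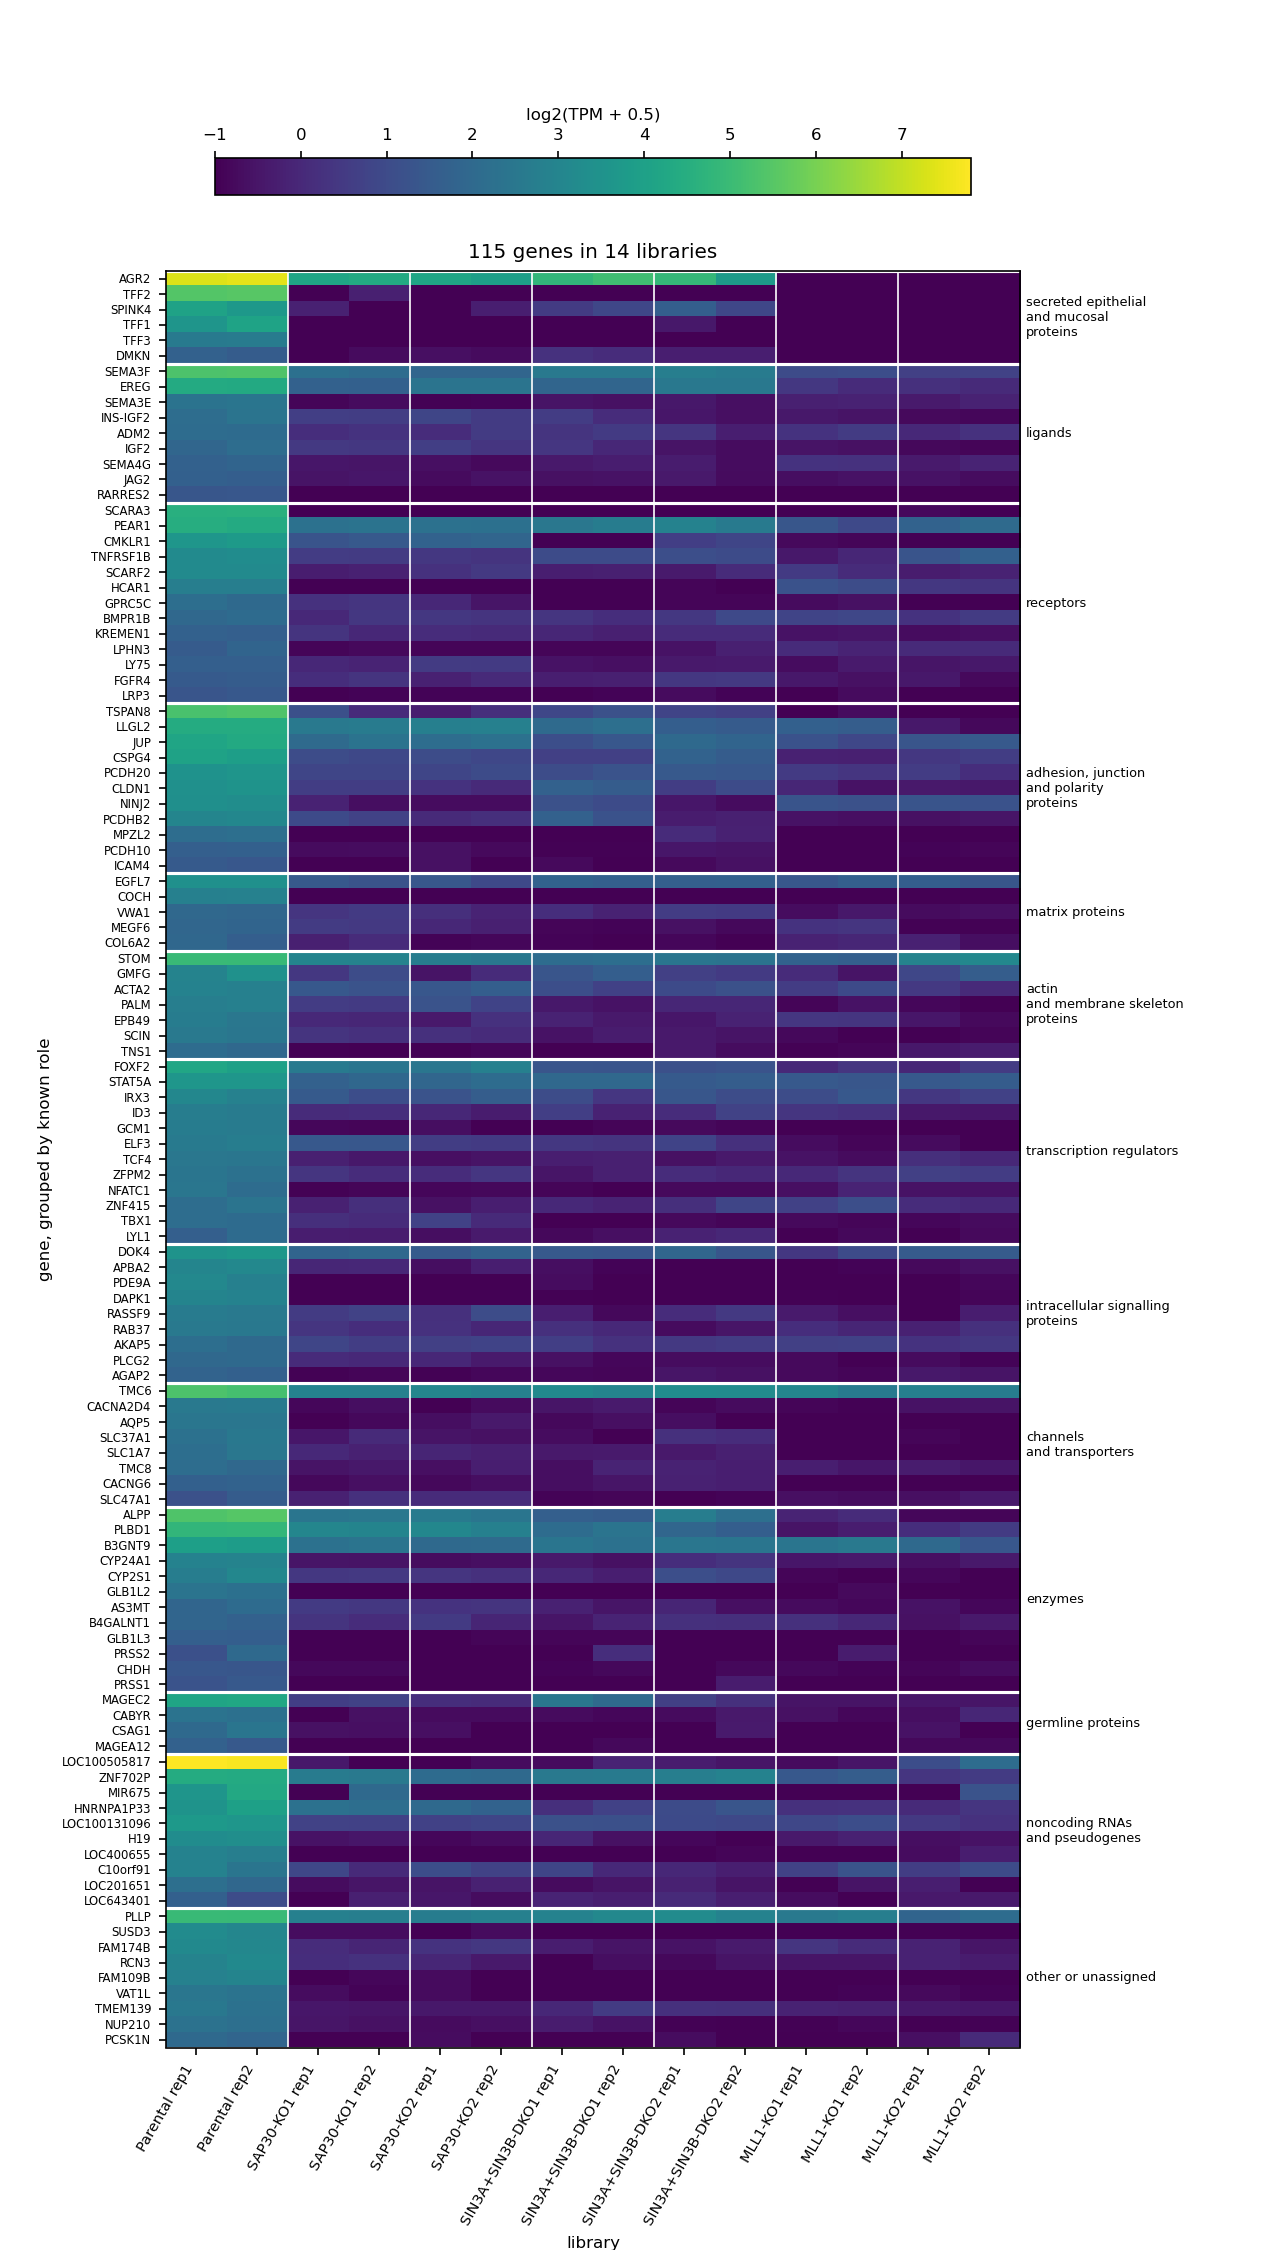
The color shows log2(TPM + 0.5) of each of the 115 genes (rows, grouped by known role and ordered by parental mean) in each of the 14 libraries (columns). The 2 parental columns are the brightest in every row, AGR2 and LOC100505817 lead them, and AGR2 drops to 0 only in the 4 MLL1-KO libraries.

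Ligands and receptors made up 22 of the genes. Among the 9 ligands, the secreted semaphorin SEMA3F, a guidance cue for axons and vessels, had the highest level. It was 40.1 and 41.4 TPM in parental libraries, 3.16 to 4.27 TPM in SAP30-KO, 5.36 to 6.28 TPM in SIN3A+SIN3B-DKO and 1.09 to 1.59 TPM in MLL1-KO, so that the 3 genotypes did not overlap. EREG (epiregulin), a ligand of the EGF receptor, was 20.5 and 19.8 TPM in parental libraries, 2.76 to 5.24 TPM in the SAP30-KO and SIN3A+SIN3B-DKO libraries and 0.541 to 0.848 TPM in MLL1-KO. JAG2, a ligand of Notch receptors, ADM2, a peptide of the adrenomedullin family, the semaphorins SEMA3E and SEMA4G, and IGF2, a fetal growth factor, had parental means of 2.68 to 4.77 TPM. INS-IGF2, a readthrough gene, holds the same reads as IGF2 in every library and adds no information.

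RARRES2 encodes chemerin, and CMKLR1 encodes the main receptor for chemerin, and both were members. RARRES2 was low, with 2.06 and 2.12 TPM or 11 reads in each parental library and 0 reads in all edited ones, at least 3.50-fold lower. CMKLR1 was 11.9 and 13.5 TPM in parental libraries, 1.93 to 3.15 TPM across the 4 SAP30-KO libraries, and 1.04 and 1.27 in SIN3A+SIN3B-DKO2. It had 0 reads in both libraries of SIN3A+SIN3B-DKO1 and of MLL1-KO2, and 4 and 2 reads in MLL1-KO1. The scavenger receptor SCARA3 was 23.2 and 23.7 TPM in parental libraries, or 639 and 635 reads, and 2 reads in all over the 12 edited libraries, both in MLL1-KO2 replicate 1.

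The other receptors ranged from 0 reads in some edited libraries to a low level in all of them. HCAR1, a receptor for lactate, was 6.35 and 6.38 TPM in parental libraries. It had 0 reads in the 4 SAP30-KO libraries, 1 read over the 4 SIN3A+SIN3B-DKO libraries, and 1.85, 1.55, 0.843 and 0.748 TPM in MLL1-KO. TNFRSF1B, a receptor for tumor necrosis factor, was 8.82 and 9.17 TPM in parental libraries, 0.764 to 1.68 TPM in SAP30-KO and SIN3A+SIN3B-DKO, 0.234 and 0.474 TPM in MLL1-KO1, and 1.97 and 2.73 TPM in MLL1-KO2. BMPR1B, a BMP receptor at the edge of the limit, was 3.44 and 3.75 TPM in parental and 0.514 to 1.41 TPM in edited libraries. The remaining 8 receptors were PEAR1, SCARF2, GPRC5C, KREMEN1, LPHN3 (ADGRL3), LY75, FGFR4 and LRP3. Over all 13 receptors the mean of the edited libraries was 0.0274% to 25.3% of the parental mean.

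Adhesion, junction and polarity genes numbered 11. TSPAN8, a tetraspanin of the cell surface, was 38.0 and 40.7 TPM in parental libraries, 0.318 to 1.75 TPM in SAP30-KO and SIN3A+SIN3B-DKO, and 1 read over the 4 MLL1-KO libraries. LLGL2, a protein of basolateral polarity, was 20.8 TPM in both parental libraries, 5.46 to 6.55 TPM in SAP30-KO, 2.35 to 4.10 TPM in SIN3A+SIN3B-DKO, 2.74 and 2.55 in MLL1-KO1, but only 0.235 and 0.0740 TPM in the libraries of MLL1-KO2. JUP (plakoglobin), which links cadherins to the cytoskeleton, was 17.4 and 19.9 TPM in parental and 1.35 to 4.59 TPM in edited libraries. CLDN1, a claudin of tight junctions, was 10.2 and 11 TPM in parental libraries, 0.530 to 1.01 TPM in SAP30-KO, 0.998 to 2.86 TPM in SIN3A+SIN3B-DKO and 0.180 to 0.462 TPM in MLL1-KO.

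NINJ2 and PCDHB2 were among the adhesion genes whose level differed between the 2 lines labelled SIN3A+SIN3B-DKO. NINJ2 (ninjurin) was 9.95 and 9.41 TPM in parental libraries, 1.77 and 1.51 in SIN3A+SIN3B-DKO1 but 0.224 and 0.114 in SIN3A+SIN3B-DKO2, 0.113 to 0.393 in SAP30-KO and 1.76 to 1.96 in MLL1-KO. PCDHB2, a protocadherin, was 7.44 and 8.01 TPM in parental libraries, 2.81 and 1.81 in SIN3A+SIN3B-DKO1 and 0.305 and 0.356 in SIN3A+SIN3B-DKO2. The other adhesion genes were CSPG4, PCDH20, PCDH10, MPZL2 and ICAM4. CLDN1 was the only member in the list of 15 claudin and junction genes, of which 10 reached the parental minimum, with a median edited mean of 62.6% of parental. Over all genes at the minimum, 0.960% were members and the median edited mean was 99.5% of parental.

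Transcription regulators numbered 12: FOXF2, STAT5A, IRX3, ID3, GCM1, ELF3, TCF4, ZFPM2, NFATC1, ZNF415, TBX1 and LYL1. FOXF2, a forkhead factor of mesenchyme, was 17.9 and 15.7 TPM in parental libraries, 4.89 to 6.70 TPM in SAP30-KO, 1.74 to 1.99 TPM in SIN3A+SIN3B-DKO and 0.473 to 0.955 TPM in MLL1-KO. STAT5A, which acts downstream of cytokine receptors and prolactin, was 11.9 and 11.8 TPM in parental and 2.06 to 3.86 TPM in edited libraries. GCM1, a factor of placental development, was at a parental mean of 5.94 TPM with 9 reads over the 12 edited libraries. ZNF415 was 3.97 and 4.75 TPM in parental libraries and spread from 0.161 to 1.67 TPM in edited ones.

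Enzymes numbered 12, and channels and transporters 8. ALPP, the placental alkaline phosphatase, was 41.5 and 43.9 TPM in parental libraries, 4.85 to 5.47 TPM in SAP30-KO, 2.45 to 6.13 TPM in SIN3A+SIN3B-DKO, 0.428 and 0.565 in MLL1-KO1 and 1 read in each library of MLL1-KO2. PLBD1, a lysosomal phospholipase-like protein, was 27.6 and 27.8 TPM in parental libraries, 6.63 to 7.87 TPM in SAP30-KO, 2.57 to 4.79 TPM in SIN3A+SIN3B-DKO and 0.190 to 0.937 TPM in MLL1-KO. TMC6, a membrane protein of the TMC family, was 40.2 and 36.1 TPM in parental libraries and 5.47 to 9.32 TPM in edited ones, with little difference between genotypes. CYP24A1, which inactivates vitamin D, was 7.03 and 7.08 TPM in parental libraries and 0.110 to 0.743 TPM in edited ones. CYP2S1, another cytochrome P450, was 6.16 and 7.84 TPM in parental libraries and had 2 reads over the 4 MLL1-KO libraries. The other enzymes were B3GNT9, B4GALNT1, GLB1L2, GLB1L3, CHDH, AS3MT, PRSS1 and PRSS2. The other channels and transporters were TMC8, SLC37A1, AQP5, CACNA2D4, CACNG6, SLC1A7 and SLC47A1. ALPP and the trypsinogen genes PRSS1 and PRSS2 have near-identical copies, and how reads were shared among copies is not given in the sources used here.

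Proteins of intracellular signalling numbered 9, those of the actin and membrane skeleton 7 and those of the matrix 5. DAPK1, a kinase that takes part in cell death, was 7.33 and 6.92 TPM in parental libraries, or 313 and 288 reads, and 6 reads over the 12 edited libraries. PDE9A, a phosphodiesterase for cyclic GMP, was 8.04 and 6.57 TPM in parental libraries and 3 reads over the edited ones. COCH (cochlin), a matrix protein of the inner ear, was 6.71 and 6.74 TPM, or 139 and 136 reads, in parental libraries and 0 reads in edited ones, at least 43.7-fold lower. STOM (stomatin), a membrane protein, was 30.5 and 30.3 TPM in parental libraries, 2.69 to 7.31 TPM in 11 of the edited libraries and 8.20 TPM in MLL1-KO2 replicate 2. MEGF6 was 3.29 and 3.11 TPM in parental libraries, 0.361 to 0.953 TPM in SAP30-KO, 0.726 and 0.770 in MLL1-KO1, and 1 read in each library of MLL1-KO2. The others of these 3 groups were DOK4, APBA2, RASSF9, RAB37, AKAP5, PLCG2, AGAP2, GMFG, ACTA2, PALM, EPB49 (DMTN), SCIN, TNS1, EGFL7, VWA1 and COL6A2.

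Germline genes numbered 4. MAGEC2, a cancer-testis antigen, was 17.8 and 18.3 TPM in parental libraries, 0.551 to 1.16 TPM in SAP30-KO, 5.02 and 3.59 in SIN3A+SIN3B-DKO1, 1.07 and 0.669 in SIN3A+SIN3B-DKO2, and 0.185 to 0.222 in MLL1-KO. MAGEA12, its neighbor CSAG1, and CABYR, a protein of the sperm tail, were at parental means of 2.53, 4.2 and 4.43 TPM. Of the list of 22 cancer-testis antigens, 3 genes reached the parental minimum, and MAGEC1 was the one that was not a member. The edited mean of MAGEC1 was higher than parental, at 152% of it, and its edited libraries spread from 0.942 to 52.3 TPM.

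For the other lists reported here, counts stand beside the 0.960% of all genes at the minimum that were members. The lists were chosen with earlier results of these data known, so nothing is read from these shares. There were 2 of 19 angiogenic ligands and receptors at the minimum (ADM2 and JAG2) and 2 of 15 axon guidance genes (SEMA3E and SEMA3F). Members made up 0 of 16 interferon-stimulated genes and 0 of 2 genes from the list of MHC class II and its partners. Those 2 were the partners CD74 and CIITA. The median edited mean of these lists was 93.3%, 75.1%, 117% and 136% of parental, against 99.5% over all genes at the minimum.

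Genes with no protein product or of no assigned group numbered 19. HNRNPA1P33, a processed pseudogene, was 11 and 15.5 TPM in parental libraries, 2.93 to 4.36 TPM in SAP30-KO and 0.545 to 2.01 TPM in the others, and its reads cannot be told apart from those of its parent gene where both match. Of 10 noncoding RNAs and pseudogenes, the others were ZNF702P, LOC100131096, C10orf91 (LINC02870), LOC201651 (AADACP1), LOC643401 (PURPL), H19 and MIR675. The 9 proteins without a group were PLLP, SUSD3, FAM174B, RCN3, FAM109B (PHETA2), VAT1L, TMEM139, NUP210 and PCSK1N. SUSD3, a small membrane protein, was 9.0 and 7.68 TPM in parental libraries and 1 read in each of 3 SAP30-KO libraries only. FAM109B, which takes part in endosomal traffic, was 6.80 and 7.41 TPM in parental libraries and held 3 reads over the 12 edited libraries.

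The genes lay on all chromosomes from 1 to 22 and on X. Chromosome 21 held 6 of its 115 genes at the minimum (5.22%) and chromosome 18 held 5 of 173 (2.89%), whereas chromosome 20 held 1 of 330 (0.303%). Another member lay within 1 Mb of 30 of the 112 placed genes (26.8%), against 13.8% of the other genes at the minimum. MIR675, PRSS2 and LOC100131096 had no position and are left out of these counts, while IGF2 and INS-IGF2 are counted separately. These shares describe positions and were not tested.

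On chromosome 21, TFF3, TFF2, TFF1, SLC37A1 and PDE9A followed each other between positions 43731777 and 44195619 (GRCh37), and these were all 5 of the genes in that span that reached the parental minimum. SLC37A1, a sugar phosphate transporter of this stretch, was 4.41 and 5.26 TPM in parental libraries and 0 to 0.653 TPM in edited ones. The nearest other genes at the minimum had edited means from 81.1% (C2CD2) to 122% of parental. ZBTB21, 301 kb before the stretch, had an edited mean of 122% of parental, and WDR4 and NDUFV3, 67.6 kb and 104 kb after it, were at 114% and 99.6%.

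On chromosome 11, H19, IGF2 and INS-IGF2 lay between positions 2016396 and 2182439 and were all 3 placed genes at the minimum there. MIR675, a member whose hairpin is part of H19 RNA, was not placed and is left out of this count. H19, an imprinted noncoding RNA, was 9.16 and 9.77 TPM in parental libraries and 0 to 0.459 TPM in edited ones. IGF2, imprinted in the opposite parental direction, was 3.29 and 3.92 TPM in parental libraries, 0.794 to 1.06 TPM in SAP30-KO, 0.803 and 0.490 in SIN3A+SIN3B-DKO1, and 0.0442 to 0.195 TPM in the 6 libraries of SIN3A+SIN3B-DKO2 and MLL1-KO. MRPL23, 10.6 kb before the stretch, was at 107% of parental, CTSD at 102% and IFITM10 at 114%. After it, CD81 was at 101% and TSSC4 at 131%. CDKN1C, 722 kb after it, was at 174%, with 2.74 to 35.5 TPM in edited libraries against a parental mean of 6.87 TPM.

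**Figure D3:**
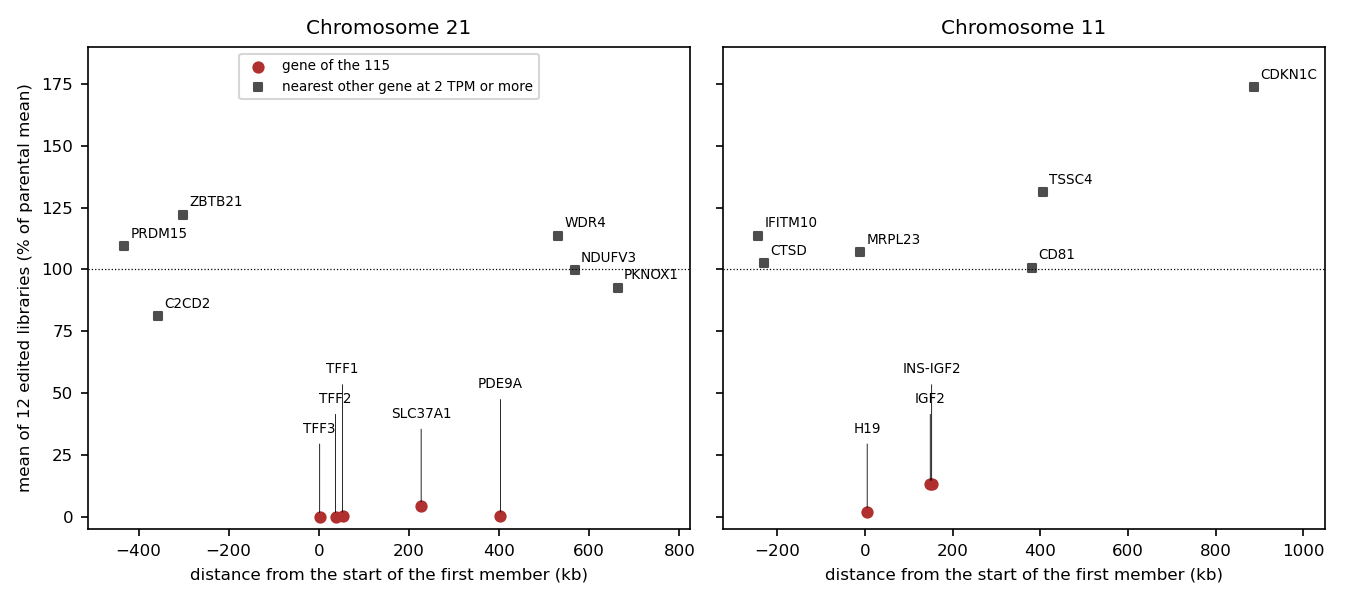
The edited mean as a percent of the parental mean is plotted against distance in kb for the members (red circles) of the chromosome 21 and chromosome 11 stretches and the 3 nearest other genes at the parental minimum on each side (grey squares). Members lie between 0% and 13.0%, and the flanking genes between 81.1% and 174%.

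Smaller groups without another gene at the minimum between them were GLB1L3 with GLB1L2 on chromosome 11, LOC400655 with LOC100505817 on chromosome 18, and MAGEA12 with CSAG1 on X. Elsewhere neighboring members had other genes at the minimum between them, such as GPRC5C, RAB37 and LLGL2 on chromosome 17, where they were 3 of 26 genes. Neighbors were the other genes in a window of 51 genes that includes the member. The median of their log2 differences from parental had a median over the members between -0.08 and 0.02 in the 6 lines. Around some members the neighbors were themselves lower. Their median was below -0.3 in every line for IRX3, VAT1L, PLCG2 and FOXF2. For GLB1L2 and GLB1L3 it was -0.79 in SAP30-KO1, -0.78 in SAP30-KO2 and -0.87 in MLL1-KO1, against -0.22 to -0.29 in the other lines, and the flanking ACAD8, THYN1 and VPS26B had edited means of 70.2%, 76.9% and 63.9% of parental. For MPZL2, also on chromosome 11, it was -0.88, -0.84 and -0.95 in the same 3 lines. Around AGR2 the neighbors were at -0.30 and -0.37 in the MLL1-KO lines and at 0.39 to 0.45 in the other lines.

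H19 RNA is the precursor of miR-675, and the MIR675 row counts reads over a 73-base hairpin in libraries of long RNA, not mature miRNA. It held 6 and 10 reads in the parental libraries, 2 in SAP30-KO1 replicate 2 and 1 in MLL1-KO2 replicate 2. The mature sequences (RefSeq, GRCh38.p14) are shown with the seed, bases 2 to 8, in capitals, to identify what this gene can yield.
hsa-miR-675-5p: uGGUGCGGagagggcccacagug
hsa-miR-675-3p: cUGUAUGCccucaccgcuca

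RefSeq promoters were at hand for 82 of the 115 genes (71.3%), too few for a comparison of promoter content over the members, and that check is void. The 250 bases before the start of 4 members are shown because they range from poor to rich in CG pairs, with CG pairs in capitals and, where present, the motif TATAAA on either strand (TTTATA when read on the other strand). AGR2 and SLC37A1, of the mucosal group and the chromosome 21 stretch, hold few CG pairs, with 3 and 4. COCH and DAPK1, with 0 and 6 reads over all edited libraries, hold 32 each. A match to TATAAA was found in COCH, on the opposite strand, and such a match on either strand is in 5.19% of the 9577 promoter windows of genes at the parental minimum, whose windows also take in 50 bases after the start. Positions are on GRCh38.p14, chr7:16805000-16805249 (minus strand) for AGR2, chr21:42499372-42499621 (plus) for SLC37A1, chr14:30874309-30874558 (plus) for COCH, and chr9:87497617-87497866 (plus) for DAPK1.
AGR2: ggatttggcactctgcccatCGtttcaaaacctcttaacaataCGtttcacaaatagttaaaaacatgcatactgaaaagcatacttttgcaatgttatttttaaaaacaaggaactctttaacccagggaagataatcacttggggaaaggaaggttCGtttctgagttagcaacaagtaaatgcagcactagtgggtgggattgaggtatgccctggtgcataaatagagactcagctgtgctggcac
SLC37A1: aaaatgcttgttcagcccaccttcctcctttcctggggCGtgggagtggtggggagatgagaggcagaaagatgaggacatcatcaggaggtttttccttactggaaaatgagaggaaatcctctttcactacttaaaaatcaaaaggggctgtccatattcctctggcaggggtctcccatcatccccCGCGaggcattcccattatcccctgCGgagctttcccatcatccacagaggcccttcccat
COCH: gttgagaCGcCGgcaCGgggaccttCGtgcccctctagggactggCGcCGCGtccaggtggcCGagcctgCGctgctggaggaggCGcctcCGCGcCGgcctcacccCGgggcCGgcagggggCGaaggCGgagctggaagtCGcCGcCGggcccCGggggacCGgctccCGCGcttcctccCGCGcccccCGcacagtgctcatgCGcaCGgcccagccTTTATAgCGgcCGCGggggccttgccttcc
DAPK1: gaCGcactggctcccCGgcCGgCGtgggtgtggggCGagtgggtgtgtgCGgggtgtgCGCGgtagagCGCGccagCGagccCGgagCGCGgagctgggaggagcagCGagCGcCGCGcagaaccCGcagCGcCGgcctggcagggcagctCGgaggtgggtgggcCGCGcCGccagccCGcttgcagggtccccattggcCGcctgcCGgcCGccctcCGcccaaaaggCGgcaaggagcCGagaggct

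The edited lines were then compared with each other in 6 comparisons, between genotypes and between the 2 lines of each genotype. The p-values rest on the spread between the libraries of a line and not on the spread between lines. In the comparisons of genotypes, the protein removed and the lines picked cannot be told apart. The differences are between edited libraries, while the parental libraries enter the fit through the filter on low values and the estimate of the spread. All 115 genes passed that filter, but only 45 of them had at least 1 TPM in at least 2 edited libraries, and a gene at or near 0 in both groups could not be called. The limit of 0.4 also caps the values compared. The share of members called is therefore a description, set beside the share of all genes tested, and nothing is read from the gap between them. Log2 differences are those of log2(TPM + 0.5), so that for genes with a few reads in 1 group their size depends on the 0.5 added.

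MLL1-KO lines had lower levels than SAP30-KO lines for 36 of the 115 genes (31.3%), where 13.5% of all genes tested were called lower, and higher levels for 7 (6.09%), against 6.34% of all genes (limma, adjusted p under 0.05 and at least 1.5-fold). Against the SIN3A+SIN3B-DKO lines, MLL1-KO lines were lower for 27 genes (23.5%), against 13.0% of all genes, and higher for 6 (5.22%), against 6.91%. The mean was lowest in MLL1-KO for 56 of the 115 genes (48.7%), and so it was for 50.2% of all genes at the parental minimum. The median log2 difference of MLL1-KO from SAP30-KO was -0.20 over the members and -0.10 over all genes tested.

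The genes lower in MLL1-KO than in SAP30-KO came from 12 of the 13 groups, with 6 of 11 adhesion genes, 6 of 13 receptors, 4 of 9 ligands, 4 of 12 enzymes and 3 of 12 transcription regulators. The other ones at least 1.8 lower on the log2 scale were CMKLR1, FOXF2, LLGL2, EREG, HNRNPA1P33 and ELF3, an epithelial ETS factor. The largest differences from SAP30-KO lines were those of AGR2, PLBD1 and ALPP. AGR2, without a read in MLL1-KO, was at least 38.6-fold lower than in SAP30-KO (adjusted p = 1.1e-09 from limma) and at least 57.6-fold lower than in SIN3A+SIN3B-DKO (adjusted p = 4.9e-10). With the median of its neighbors subtracted, an alternative added after the data were seen, AGR2 differed by -4.38 and -4.89 (limma, adjusted p = 5.4e-09 and 1.8e-09). The part of its region in this difference was not tested. PLBD1 differed by -3.02 ± 0.12 (log2 difference ± SE, adjusted p = 2.1e-09) from SAP30-KO and by -2.04 ± 0.12 (adjusted p = 4.7e-08) from SIN3A+SIN3B-DKO, with no overlap of libraries. ALPP differed by -2.91 ± 0.11 and -2.48 ± 0.11 (adjusted p = 1.8e-09 and 6e-09).

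The genes higher in MLL1-KO than in SAP30-KO were NINJ2, HCAR1, LOC100505817, LPHN3, ZNF415, SEMA3E and SEMA4G. HCAR1, with 0 reads in all SAP30-KO libraries, was at least 8.91-fold higher in MLL1-KO (adjusted p = 1.6e-07). It was also called higher than in the SIN3A+SIN3B-DKO lines (adjusted p = 1.8e-07), whose 4 libraries held 1 read. NINJ2 was higher in MLL1-KO than in SAP30-KO by 1.81 ± 0.13 (limma, adjusted p = 3.1e-07), and by 0.99 ± 0.13 than in SIN3A+SIN3B-DKO (adjusted p = 4.2e-05). The second difference rests mostly on SIN3A+SIN3B-DKO2, at 0.224 and 0.114 TPM. SIN3A+SIN3B-DKO1 was at 1.77 and 1.51 TPM, and its replicate 1 overlapped with the MLL1-KO libraries. LOC100505817 was higher by 1.29 ± 0.23 and 0.91 ± 0.23 (adjusted p = 0.00042 and 0.0041), which rests on MLL1-KO2, and the libraries overlapped in both comparisons.

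**Figure D4:**
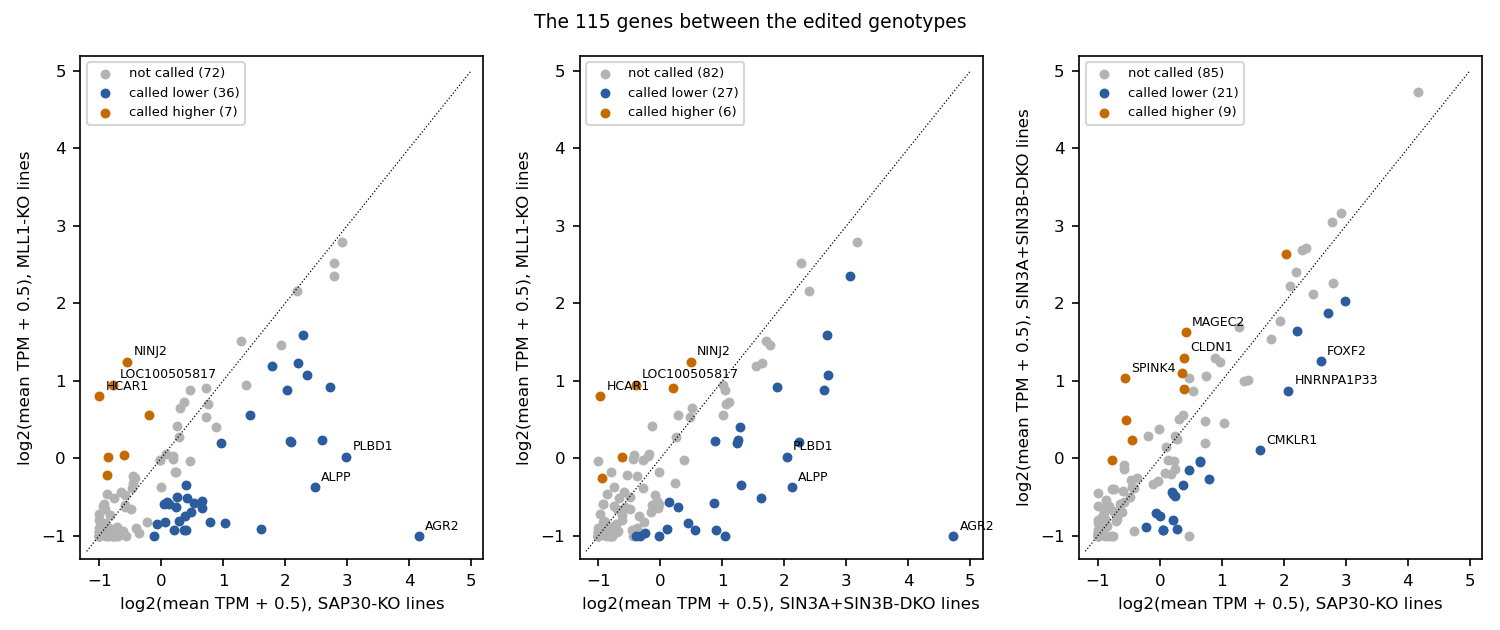
The 115 genes are plotted by log2(mean TPM + 0.5) in 2 genotypes per panel, with genes called lower in the genotype on the y axis in blue, called higher in orange and not called in grey. The panels hold 36 and 7, 27 and 6, and 21 and 9 genes called lower and higher, and AGR2 lies farthest below the dotted line of equality in both MLL1-KO panels.

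The SIN3A+SIN3B-DKO and SAP30-KO lines, made to lack proteins of the same complex, also differed for some members. SIN3A+SIN3B-DKO lines were lower for 21 genes (18.3%), against 4.22% of all genes, and higher for 9 (7.83%), against 3.25%. The largest lower differences were those of CMKLR1 (-1.73 ± 0.10, adjusted p = 3.1e-07), FOXF2 (-1.34 ± 0.15, adjusted p = 2.5e-05) and the pseudogene HNRNPA1P33 (-1.25 ± 0.15, adjusted p = 5e-05), each with no overlap of libraries. SPINK4 was higher by 1.59 ± 0.24 (adjusted p = 0.00027), also without overlap, and MAGEC2 and CLDN1 were higher by 0.95 ± 0.13 and 0.85 ± 0.14 (adjusted p = 0.00011 and 0.00055), with overlap. SPINK4 has a short RNA and at most 8 reads in any edited library. AGR2 was 0.49 ± 0.18 higher in SIN3A+SIN3B-DKO, which did not reach 1.5-fold (adjusted p = 0.046), and the libraries overlapped.

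Lines of the same genotype differed least in SAP30-KO. Only EREG was called, higher in SAP30-KO2 by 0.68 ± 0.12 (adjusted p = 0.043), which is 1 of the 115 genes where 0.0739% of all genes were called higher, and this call was lost when any 1 of the 4 SAP30-KO libraries was left out (adjusted p = 0.13 to 0.27). No gene was called lower, against 0.0739% of all genes. At an unadjusted p under 0.05 from limma, 11 members were lower and 5 higher. No share of all genes stands beside these 2 counts, so nothing is read from them.

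Between the libraries labelled SIN3A+SIN3B-DKO2 and SIN3A+SIN3B-DKO1, 11 genes were called higher (9.57%), against 1.01% of all genes, and 7 lower (6.09%), against 1.22%. CMKLR1, with 0 reads in both SIN3A+SIN3B-DKO1 libraries, was at least 17.5-fold higher in SIN3A+SIN3B-DKO2 (adjusted p = 6e-05), and CYP2S1 was higher by 1.16 ± 0.18 (adjusted p = 0.0026). MAGEC2 and PCDHB2 were lower in SIN3A+SIN3B-DKO2 by -1.81 ± 0.18 and -1.74 ± 0.19 (adjusted p = 0.00015 and 0.00027). The counts were 6 and 3 without SIN3A+SIN3B-DKO1 replicate 1, 5 higher without its replicate 2, and 6 and 4 without SIN3A+SIN3B-DKO2 replicate 2.

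Between MLL1-KO2 and MLL1-KO1, 10 genes were called higher (8.70%), against 7.15% of all genes, and 11 lower (9.57%), against 3.27%. LOC100505817 and TNFRSF1B were higher in MLL1-KO2 by 2.20 ± 0.32 and 1.74 ± 0.17 (adjusted p = 0.00027 and 1.6e-05). LLGL2 and MEGF6 were lower by -2.27 ± 0.13 and -1.26 ± 0.17 (adjusted p = 2.7e-07 and 0.00016). Without MLL1-KO2 replicate 2, 6 genes were called in each direction. CMKLR1, LOC100505817 and the other genes named for a difference within a genotype vary between lines made with the same target, and for them a genotype mean stands for 2 unlike lines.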

How the data were processed

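RNA-Seq of cultured MDA-MB-231 cells was analysed in 14 libraries, 2 of each of 7 conditions, grouped by the submitters' labels. The authors prepared poly(A) RNA libraries with the KAPA mRNA HyperPrep kit and sequenced them on an Illumina NextSeq instrument. The submitters' processing notes name FastQC 0.11.2, TopHat, featureCounts, and hg19. The deposited values are named RPKM by the authors but add up to 1000000 in every library, as TPM do, and were used as TPM. Differences in total RNA per cell cannot be seen on this scale.

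The steps between low values of the deposited TPM gave back whole reads, within 0.0002 of a whole number, for 18519 of the 18519 genes with any value above 0. Libraries held 18415039 to 23162686 such reads, with a median of 21648532. A spreadsheet had made dates of 28 symbols, which are not named here.

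A gene was taken when its parental mean was at least 2 TPM and each of the 12 edited libraries was at most 0.4 times that mean. The members and lists were chosen with earlier results of these data known. Because parental and edited values chose the members, no edited line was tested against parental cells. Edited lines were compared with each other by limma 3.58.1 in R 4.3.3 with a variance trend, on log2(TPM + 0.5), as 7 group means over all 14 libraries. The fit covered the 13540 genes with at least 1 TPM in at least 2 libraries, with residual degrees of freedom of 7 and prior ones of 3.58. Calls needed a Benjamini-Hochberg adjusted p under 0.05 within a comparison and at least 1.5-fold, and fold changes of low genes come out too small because of the 0.5. The labels do not say whether the 2 libraries of a condition came from separate cultures, so p-values measure the spread between these libraries, which may be technical. The procedure was tested on simulated data.

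Values, by library or as ranges, are given for the 8 members with the highest parental mean. They are also given for the 8 with the lowest ratio of highest edited library to parental mean. The same holds for the members with the largest called differences (3 each way between genotypes, 2 each way between lines of 1 genotype). For CYP2S1, PCDHB2 and MEGF6 some genotypes were left out. The 3 genes on each side of the ratio limit are given by highest edited library and parental mean, with further values for those inside. Functional groups were assigned by hand after the members were known. The result of 1 further gene list is not reported here. Alternatives are listed in the closing section. Counting intervals and floors of 3 reads cover counting error only. Gene positions are those of GENCODE release 44 on GRCh37, and promoter and miRNA sequences are those of RefSeq on GRCh38.p14. Only RNA was analysed here.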

Additional observations from a re-analysis of the deposited data

Results flagged for a closer look

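Lines made with the same target were compared with each other by limma, and 9 members are listed because 2 lines of 1 genotype differed in them. They are the called members with the largest differences, at most 2 in each direction of each comparison. All values are log2 differences on the log2(TPM + 0.5) scale, and the libraries of the paired lines did not overlap for any of the 9.

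EREG was 0.68 higher in SAP30-KO2 than in SAP30-KO1, with 4.78 and 4.77 against 2.85 and 2.76 TPM. Between SIN3A+SIN3B-DKO2 and SIN3A+SIN3B-DKO1, MAGEC2 differed by -1.81, PCDHB2 by -1.74, CMKLR1 by 1.72 and CYP2S1 by 1.16. CMKLR1 had 0 reads in both libraries of SIN3A+SIN3B-DKO1 and 49 and 59 reads in those of SIN3A+SIN3B-DKO2, so that the size of its log2 difference depends on the 0.5 added.

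Between MLL1-KO2 and MLL1-KO1, LLGL2 differed by -2.27, MEGF6 by -1.26, LOC100505817 by 2.20 and TNFRSF1B by 1.74. LLGL2 and MEGF6 were at most 0.235 and 0.0198 TPM in MLL1-KO2. Each line is 1 mixture of picked cells, so that a difference between lines and a difference between the cells that were picked cannot be told apart.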

How the results depend on the processing

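Of 149 counts of members recomputed under other settings, 103 stayed within 1.5 times the value reported, and of 86 recomputed without 1 library, 75 did. No named difference changed direction, and 16 of 315 under other settings and 4 of 180 without 1 library (all EREG) lost their call. The cause of a changed call was not tested. Shares of all genes called are given for the main setting only. The counts below therefore show how the reported counts moved, and nothing else is read from them. The rule gave 63 genes at a parental minimum of 5 TPM, and 115 to 125 without 1 library.

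In the order higher, lower, the counts without 1 library were 6 to 7 and 35 to 38 for MLL1-KO against SAP30-KO, 5 to 7 and 26 to 30 for MLL1-KO against SIN3A+SIN3B-DKO, and 6 to 10 and 18 to 21 for SIN3A+SIN3B-DKO against SAP30-KO. Between lines they were 0 and 0 for SAP30-KO, 5 to 11 and 3 to 8 for SIN3A+SIN3B-DKO, and 6 to 10 and 6 to 11 for MLL1-KO.

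A pseudocount of 0.1 gave 14 higher for MLL1-KO against SIN3A+SIN3B-DKO, 0 higher and 1 lower between SAP30-KO lines, and 18 lower between MLL1-KO lines. A pseudocount of 1 gave 3 higher for MLL1-KO against SAP30-KO, 3 higher against SIN3A+SIN3B-DKO, 3 and 8 for SIN3A+SIN3B-DKO against SAP30-KO, 6 and 4 between SIN3A+SIN3B-DKO lines, and 6 higher between MLL1-KO lines. Without a filter on low values, SAP30-KO lines gave 0 and 1. Quantile normalization gave 10 higher for MLL1-KO against SIN3A+SIN3B-DKO and 17 lower between MLL1-KO lines. With only the libraries compared in the fit, SAP30-KO lines gave 0 higher and SIN3A+SIN3B-DKO lines 1 and 0, where fewer libraries set the spread.

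A 2-fold minimum gave 3 and 21 for MLL1-KO against SAP30-KO, 1 and 17 against SIN3A+SIN3B-DKO, 1 and 5 for SIN3A+SIN3B-DKO against SAP30-KO, 0 higher between SAP30-KO lines, 3 and 3 between SIN3A+SIN3B-DKO lines, and 4 and 4 between MLL1-KO lines. No fold minimum gave 13 and 45 for MLL1-KO against SIN3A+SIN3B-DKO, 19 higher for SIN3A+SIN3B-DKO against SAP30-KO, and 1 lower between SAP30-KO lines. Called in each of the 4 pairs of single lines were 3 higher for MLL1-KO against SAP30-KO, 1 and 17 against SIN3A+SIN3B-DKO, and 2 and 9 for SIN3A+SIN3B-DKO against SAP30-KO. Limma-voom on recovered reads, added after the data were seen, gave 12 higher for MLL1-KO against SAP30-KO, 17 higher against SIN3A+SIN3B-DKO, 18 higher for SIN3A+SIN3B-DKO against SAP30-KO, 3 lower between SAP30-KO lines, 11 lower between SIN3A+SIN3B-DKO lines, and 16 and 19 between MLL1-KO lines.

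The replicate numbers did not pair the libraries, with a mean correlation of 0.015 between same-numbered deviations over 21 pairs of conditions (-0.073 to 0.082). The replicate block gave 7 and 36 for MLL1-KO against SAP30-KO, 6 and 27 against SIN3A+SIN3B-DKO, 9 and 21 for SIN3A+SIN3B-DKO against SAP30-KO, 1 and 0 between SAP30-KO lines, 11 and 7 between SIN3A+SIN3B-DKO lines, and 9 higher between MLL1-KO lines. Depth limits members near 0 in edited cells, where 1 read is a large share of the level.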
